A study of Mus musculus with 4 samples.

Results

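CDK inhibitors and D-type cyclins were examined in cultured mouse peritoneal macrophages. These are 8 genes selected by name from the 54532 genes of the deposited count table: the CIP/KIP inhibitors Cdkn1a (p21), Cdkn1b (p27) and Cdkn1c (p57), the INK4 inhibitors Cdkn2c (p18) and Cdkn2d (p19), and the D-type cyclins Ccnd1, Ccnd2 and Ccnd3. All 8 passed the filter on low counts (10 reads or more in any library), as 13715 genes did, though Ccnd2 had that many reads in 3 of its 4 libraries only. The genes were chosen with earlier results of these libraries known, so their values are given as a description, without a test.

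The 4 RNA-seq libraries came from wild-type macrophages of the peritoneal fluid, and the study's methods describe such macrophages as thioglycollate-elicited cells of BALB/c mice. They were kept in normal medium (0% 4T1) or in medium with 30% 4T1-CM, which is culture medium taken from 4T1, a mammary carcinoma line of the mouse. Each medium was given with DMSO as vehicle or with CH223191 at 10 µM, which blocks the aryl hydrocarbon receptor (AHR). The study asked what increased AHR activity does in macrophages that meet signals of a breast tumor. Each condition has 1 library, which leaves the spread between cultures unmeasured, and none of the differences below was checked in a replicate. The age and sex of the mice, whether cells of several mice were pooled and how long the treatment lasted are not given in the labels. The methods describe such cultures as pre-treated with the compound before the conditioned medium was added.

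The counts summed to between 15535405 and 17557127 reads per library. Levels are given in CPM, which are reads per 1e6 reads of the library size scaled by the TMM method. All 5 macrophage markers examined (Adgre1, Csf1r, Cd68, Itgam and Lyz2) were present in each library, and summed to 13958 and 18171 CPM in normal medium and 37339 and 39867 CPM in 4T1-CM, most of it Lyz2. The share of mitochondrial genes in all counts was 0.633% (DMSO) and 1.17% (CH223191) without 4T1-CM, against 1.76% and 1.79% in its presence. This share thus moved with the medium, as the genes below did, and in normal medium it was also higher with CH223191. Its part in the results was not tested. The 95% intervals given with values cover counting error only. A count of 3 reads, at or under which no fold is given, was 0.171 to 0.189 CPM.

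D-type cyclins bind the kinases CDK4 and CDK6 in the G1 phase, and the active complexes phosphorylate the retinoblastoma protein, which releases E2F factors for entry into S phase. INK4 proteins bind CDK4 and CDK6 themselves and keep them from the cyclins. CIP/KIP proteins bind cyclin and kinase together and inhibit CDK2 complexes above all, while they can also help to assemble cyclin D with CDK4. Most tissue macrophages rest outside the cell cycle, and growth factors such as M-CSF and GM-CSF are known to act on D-type cyclins.

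Each of the 8 genes lies at the same position in the deposited table and in the GENCODE M21 annotation of GRCm38. Cdkn1c is on chromosome 7 from 143458339 to 143461050 on the minus strand, and Ccnd1 is on the same chromosome and strand from 144929931 to 144939925. Cdkn1b (134920401 to 134925513, plus strand) and Ccnd2 (127125162 to 127152193, minus strand) are both on chromosome 6. Cdkn1a (29090976 to 29100727) and Ccnd3 (47505051 to 47599691) are on the plus strand of chromosome 17, Cdkn2c is on the minus strand of chromosome 4 from 109660876 to 109667189, and Cdkn2d is on the minus strand of chromosome 9 from 21288410 to 21291407.

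Promoter windows of RefSeq (GRCm38.p6), which run from 250 bases before to 50 bases after a transcription start, were found for 5 of the 8 genes: Cdkn1a, Cdkn1b, Cdkn2c, Cdkn2d and Ccnd3, with 8 windows in all. Cdkn1c, Ccnd1 and Ccnd2 had no entry. Since CH223191 acts on AHR, the windows were searched on both strands for GCGTG, the core of the AHR response element, and 5 of the 8 windows, 1 for each of the 5 genes, held it, against 32.4% of all 32851 windows. The STAT motif TTCNNNGAA was in 0 of the 8 windows and in 8.3% of all windows, the E2F motif TTTGGCGC was in 0 of the 8 and in 0.514% of all, and the FOXO motif GTAAACA was in 1 window of Ccnd3 and in 3.65% of all. The motifs do not overlap one another in these windows. The 250 bases before the start are shown for the pair of genes that were both higher with 4T1-CM, Cdkn1b and Ccnd3, and for Cdkn2c, which was lower, with the GCGTG core, or its reverse complement CACGC, in capitals. They are written 5′ to 3′ along the gene and lie at chr6:134920151-134920400 (plus strand), chr17:47593217-47593466 (plus strand) and chr4:109666757-109667006 (minus strand).
Cdkn1b: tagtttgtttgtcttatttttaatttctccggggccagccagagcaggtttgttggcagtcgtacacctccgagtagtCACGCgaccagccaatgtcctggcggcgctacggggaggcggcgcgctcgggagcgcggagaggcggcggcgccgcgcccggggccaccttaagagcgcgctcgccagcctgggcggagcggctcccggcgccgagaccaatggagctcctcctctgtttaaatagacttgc
Ccnd3: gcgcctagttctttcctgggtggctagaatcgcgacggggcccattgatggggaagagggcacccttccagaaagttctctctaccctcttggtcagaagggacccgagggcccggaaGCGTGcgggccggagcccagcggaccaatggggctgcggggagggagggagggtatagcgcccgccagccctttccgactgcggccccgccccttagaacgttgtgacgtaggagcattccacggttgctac
Cdkn2c: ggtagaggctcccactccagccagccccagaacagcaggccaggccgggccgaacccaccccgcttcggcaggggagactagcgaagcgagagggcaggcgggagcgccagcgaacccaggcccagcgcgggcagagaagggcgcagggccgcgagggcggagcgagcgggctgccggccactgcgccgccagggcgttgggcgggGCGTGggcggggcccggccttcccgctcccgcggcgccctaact
Counted from the start, the core lay at position -172 in Cdkn1b, on the opposite strand, at -132 in Ccnd3 and at -44 in Cdkn2c. The GC content of these stretches was 64.4%, 64.8% and 77.2%, against a median of 52.4% over all windows. A match describes the letters and shows no binding.

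With 4T1-CM, the macrophages had far less Cdkn1c and Ccnd1 mRNA, less Cdkn2c, and more Cdkn1b and Ccnd3, and this pattern was found both with DMSO and with CH223191. Cdkn1a and Cdkn2d differed little with 4T1-CM. None of the 7 genes with enough reads for a fold differed by as much as 2-fold with CH223191, and Cdkn1c was lower with it in both media. The levels in each library are plotted by gene.

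**Figure D1:**
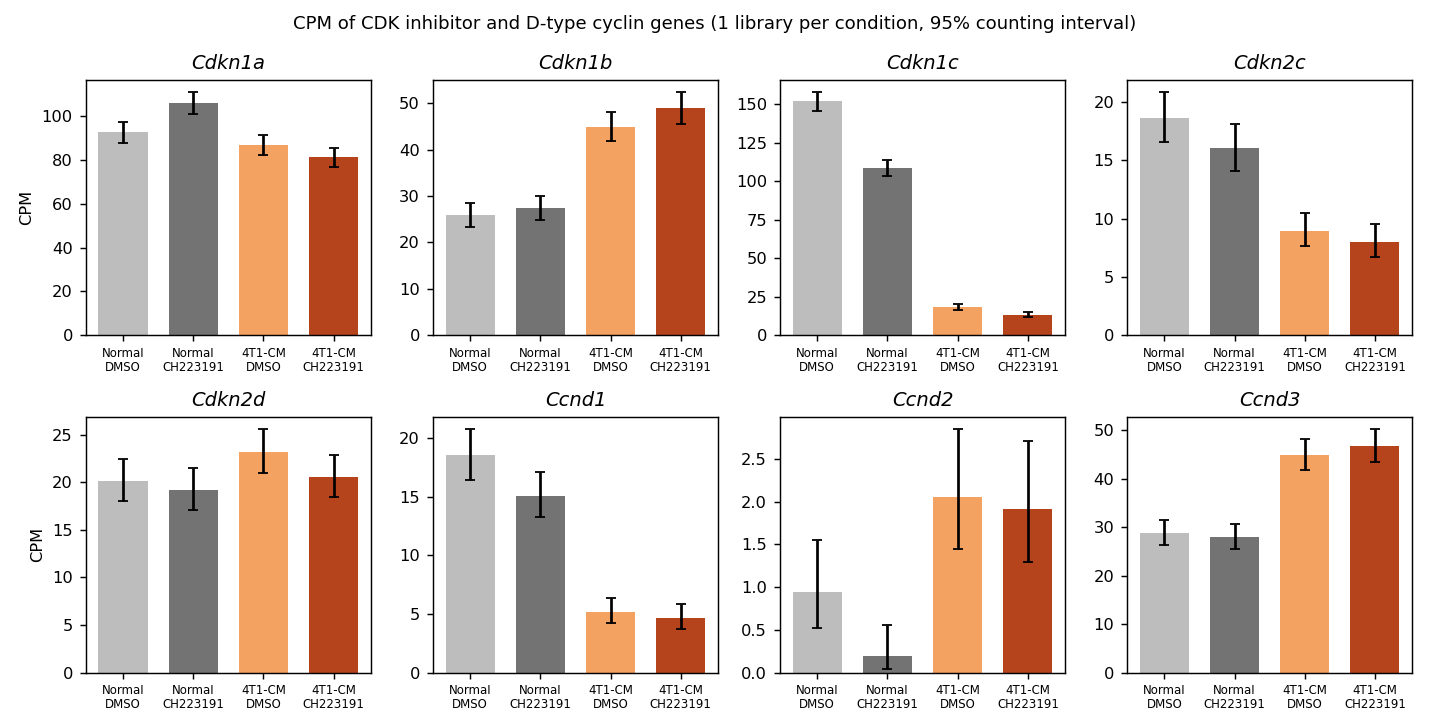
CPM of each gene (y axis) in the 4 libraries (x axis), with 1 bar per library and its 95% Poisson interval, which covers counting error only. Both libraries with 4T1-CM lie below both libraries in normal medium for Cdkn1a, Cdkn1c, Cdkn2c and Ccnd1. They lie above them for Cdkn1b, Cdkn2d, Ccnd2 and Ccnd3, so every gene shown separates by medium. What share of all genes separates in this way was not counted. For Cdkn1a, Cdkn2d and Ccnd2, some intervals overlap between the media.

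Cdkn1c encodes p57, an imprinted CIP/KIP inhibitor known for its role in development and in stem cell quiescence. It had 2423 reads (152 CPM) in normal medium with DMSO, 1729 (109 CPM) in normal medium with CH223191, 320 (18.3 CPM) in 4T1-CM with DMSO and 216 (13.3 CPM) in 4T1-CM with CH223191. Both libraries in normal medium were high and both with 4T1-CM were low, with no overlap of their counting intervals. The share of all genes without such overlap was not counted. The log2 ratio of 4T1-CM to normal medium was -3.05 (95% interval -3.23 to -2.89) with DMSO, an 8.3-fold lower level, and -3.03 (-3.24 to -2.83) with CH223191, an 8.16-fold lower level. Few genes lay below it, as 0.292% of the 13715 genes had a lower ratio with DMSO and 0.386% with CH223191. In normal medium Cdkn1c ranked above 91.9% of the genes in CPM with DMSO, and in 4T1-CM above 51.3%.

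Among the 5 inhibitor genes, Cdkn1c also had the largest difference with CH223191 in each medium. Its log2 ratio of CH223191 to DMSO was -0.48 (-0.57 to -0.39) without 4T1-CM and -0.46 (-0.72 to -0.21) when 4T1-CM was present. Both intervals lay below 0, and these comparisons share no library, but 9.78% and 8.28% of all genes had a lower ratio. The responses to 4T1-CM with and without CH223191 differed by 0.02 on the log2 scale, with a counting interval of -0.24 to 0.29. The antisense gene Gm44732 covers 30.7% of the bases of the Cdkn1c exons and had 0 reads in each library.

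Cdkn1a encodes p21, the CIP/KIP inhibitor known as a direct target of p53. It had 1475 reads (92.5 CPM) in normal medium with DMSO, 1683 (106 CPM) in normal medium with CH223191, 1518 (86.7 CPM) in 4T1-CM with DMSO and 1318 (81.1 CPM) in 4T1-CM with CH223191. The highest library was that in normal medium with CH223191, and the range over the 4 libraries was narrow. Addition of CH223191 gave a log2 ratio of 0.19 (0.09 to 0.30) without 4T1-CM and of -0.10 (-0.20 to 0.01) when it was present. The log2 ratio for 4T1-CM was -0.09 (-0.20 to 0.01) with DMSO and -0.38 (-0.49 to -0.28) with CH223191, a difference of -0.29 (-0.44 to -0.14 from counting). Among the 8 genes, the response of Cdkn1a to 4T1-CM thus differed with CH223191 by more than its counting error, and only Ccnd2, which had few reads, did so as well. Cdkn1a had the smallest counting error of the 8 genes for this difference. What share of all genes differs in this way was not counted.

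Cdkn1b encodes p27, which is known to hold resting cells out of the cycle. It had 412 reads (25.8 CPM) in normal medium with DMSO, 435 (27.4 CPM) in normal medium with CH223191, 787 (45 CPM) in 4T1-CM with DMSO and 795 (48.9 CPM) in 4T1-CM with CH223191. Both libraries with 4T1-CM were high, and their counting intervals did not overlap those in normal medium, though how many of all genes do so was not counted. The log2 ratio of 4T1-CM to normal medium was 0.80 (0.62 to 0.97) with DMSO and 0.84 (0.67 to 1.01) with CH223191, which are levels 1.74-fold and 1.79-fold higher. Of all genes, 15.1% and 14.7% had a higher ratio. Addition of CH223191 gave a log2 ratio of 0.08 (-0.12 to 0.28) without 4T1-CM and of 0.12 (-0.02 to 0.27) when it was present, both with an interval that included 0.

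The INK4 genes went separate ways with 4T1-CM. Cdkn2c, which encodes p18, had 297 reads (18.6 CPM) in normal medium with DMSO, 255 (16 CPM) in normal medium with CH223191, 157 (8.97 CPM) in 4T1-CM with DMSO and 130 (8 CPM) in 4T1-CM with CH223191. Its log2 ratio with 4T1-CM was -1.05 (-1.34 to -0.77) with DMSO and -0.9999 (-1.32 to -0.69) with CH223191. The levels were 2.07-fold and 1.9999-fold lower, so that Cdkn2c lay just past the 2-fold limit with DMSO and just short of it with CH223191.

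Cdkn2d, which encodes p19 of the INK4 family, had 321 reads (20.1 CPM) in normal medium with DMSO, 305 (19.2 CPM) in normal medium with CH223191, 406 (23.2 CPM) in 4T1-CM with DMSO and 334 (20.6 CPM) in 4T1-CM with CH223191. The counting intervals of the 4 libraries overlapped. The log2 ratio with 4T1-CM was 0.20 (-0.01 to 0.42) with DMSO and 0.10 (-0.13 to 0.33) with CH223191. For CH223191 against DMSO, the log2 ratio of Cdkn2c was -0.22 (-0.46 to 0.03) and -0.16 (-0.51 to 0.18) in the absence and presence of 4T1-CM, and that of Cdkn2d was -0.07 (-0.30 to 0.16) and -0.17 (-0.39 to 0.04), and all 4 intervals included 0.

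Among the D-type cyclins, Ccnd1 had 295 reads (18.5 CPM) in normal medium with DMSO, 240 (15.1 CPM) in normal medium with CH223191, 91 (5.2 CPM) in 4T1-CM with DMSO and 76 (4.68 CPM) in 4T1-CM with CH223191. Both libraries with 4T1-CM were low. The log2 ratio was -1.83 (-2.19 to -1.49) with DMSO and -1.68 (-2.08 to -1.31) with CH223191, which are 3.54-fold and 3.21-fold lower levels, and 1.62% and 2.33% of all genes had a lower ratio. Addition of CH223191 gave a log2 ratio of -0.29 (-0.55 to -0.04) without 4T1-CM and of -0.15 (-0.61 to 0.30) when it was present. Oraov1, a protein-coding gene on the opposite strand, covers 23.4% of the bases of the Ccnd1 exons, and whether the counting used the strand is not stated. Oraov1 had 468, 500, 385 and 416 reads in the same order, with log2 ratios of -0.42 and -0.30 for 4T1-CM with DMSO and with CH223191, smaller than those of Ccnd1.

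Ccnd3 is the D-type cyclin best known from blood cells. It had 459 reads (28.8 CPM) in normal medium with DMSO, 444 (27.9 CPM) in normal medium with CH223191, 786 (44.9 CPM) in 4T1-CM with DMSO and 759 (46.7 CPM) in 4T1-CM with CH223191. As for Cdkn1b, both libraries with 4T1-CM were high. The log2 ratio was 0.64 (0.47 to 0.81) with DMSO and 0.74 (0.57 to 0.92) with CH223191, or 1.56-fold and 1.67-fold. Addition of CH223191 gave a log2 ratio of -0.04 (-0.24 to 0.15) without 4T1-CM and of 0.06 (-0.09 to 0.20) when it was present.

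Ccnd2, a D-type cyclin that is a known target of STAT5, was close to the limit of detection, with 15 reads (0.941 CPM) in normal medium with DMSO, 3 (0.189 CPM) in normal medium with CH223191, 36 (2.06 CPM) in 4T1-CM with DMSO and 31 (1.91 CPM) in 4T1-CM with CH223191. The library in normal medium with CH223191 was the lowest, and both with 4T1-CM were higher than both without, while the counting interval in normal medium with DMSO (0.527 to 1.55 CPM) overlapped those in 4T1-CM. The log2 ratio with 4T1-CM was 1.10 (0.22 to 2.10) with DMSO. With CH223191 no fold is given because of the 3 reads, and the counting interval ran from 1.66 to 5.69. For CH223191 in normal medium the interval ran from -4.75 to -0.50, and in 4T1-CM the log2 ratio was -0.11 (-0.85 to 0.63). The antisense genes 9330179D12Rik and Gm43126 cover 3.91% and 3.95% of its exon bases, with at most 2 reads in a library.

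**Figure D2:**
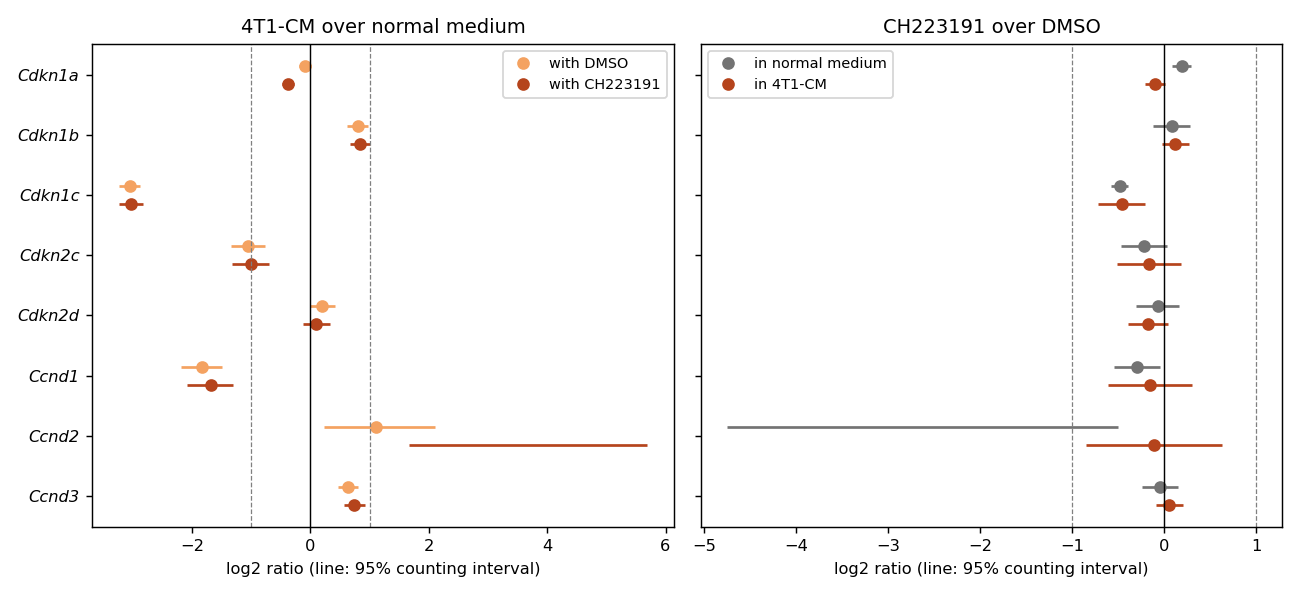
Log2 ratio (x axis) of each gene (y axis) for 4T1-CM over normal medium (left) and CH223191 over DMSO (right), with a point for each pair of libraries, a line for its 95% counting interval and dashed lines at 2-fold. Cdkn1c and Ccnd1 lie past 2-fold on the left in both comparisons, no point lies past 2-fold on the right, and Ccnd2 has only a line where a library had 3 reads.

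Counted at 2-fold with DMSO, 3 of the 8 genes (Cdkn1c, Cdkn2c and Ccnd1) were lower with 4T1-CM and 1 (Ccnd2) was higher, where 6.11% of the 13715 genes were lower and 12.2% were higher. Either way, these were 4 of the 8 genes and 18.3% of all genes. The shares of all genes also count genes with 3 reads or fewer in a library. Ccnd2 is therefore counted in the same way where 1 of its libraries had 3 reads, although no fold is given for it there. In the presence of CH223191, 2 of the 8 (Cdkn1c and Ccnd1) were lower and 1 (Ccnd2) was higher, where 7.86% of all genes were lower, 12% were higher and 19.9% differed either way. Cdkn1c and Ccnd1 were lower in both comparisons, as were 3.38% of all genes, and Ccnd2 was higher in both, as were 8.18% of all genes.

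For CH223191 against DMSO, 1 of the 8 genes (Ccnd2, with 3 reads) counted as lower in normal medium, and 0 were past 2-fold in 4T1-CM. The share of all genes was 3.31% lower, 4.84% higher and 8.15% either way in normal medium, and 2.66%, 2.75% and 5.41% in 4T1-CM. In both media together, 0.481% of all genes were lower and 0.649% higher. The median log2 ratio of the 8 genes with 4T1-CM was 0.06 with DMSO and -0.14 with CH223191, against 0.01 and 0.02 over all genes. For CH223191 against DMSO the medians were -0.14 without 4T1-CM and -0.13 in its presence, against 0.0034 and 0.0039. Since the genes were chosen with these ratios known, nothing is read from the shares. A comparison of 4T1-CM and a comparison of CH223191 have a library in common, for instance that of normal medium with DMSO, and are given side by side only.

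**Figure D3:**
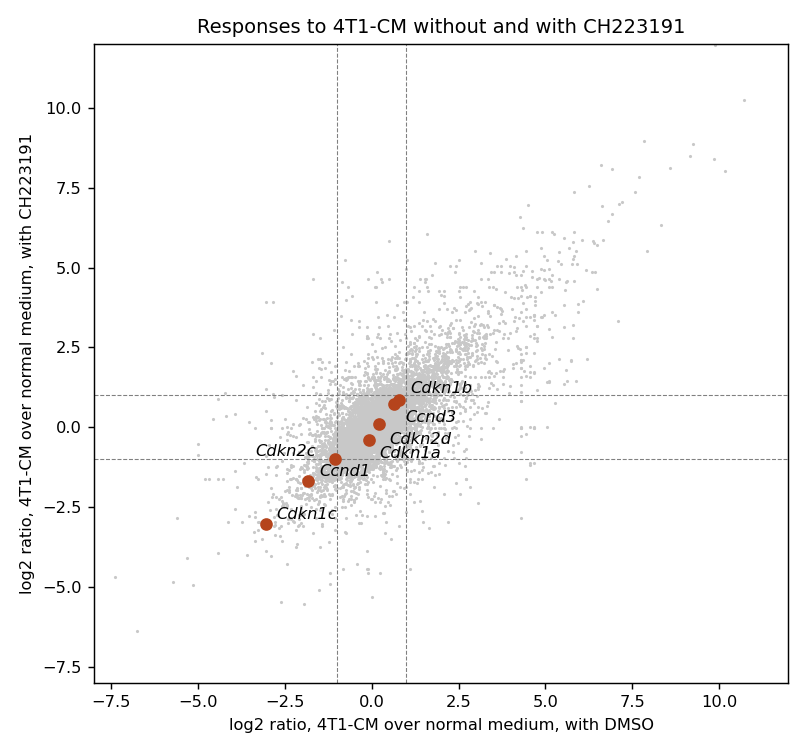
Log2 ratio of 4T1-CM to normal medium with DMSO (x axis) and with CH223191 (y axis) for the 13715 genes with enough reads (grey points) and 7 of the 8 genes described here (red points), with dashed lines at 2-fold. Cdkn1c and Ccnd1 lie at the lower left, Cdkn2c at the 2-fold lines, and Cdkn1b and Ccnd3 together within the 2-fold lines at the upper right, and Ccnd2 is not drawn because 1 of its libraries had 3 reads.

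To compare levels between genes, CPM were divided by the gene length in kb given in the deposited table. That length equals the bases of all GENCODE M21 exons of the gene together, not of a single transcript. The order between genes and the family sums depend on it. In normal medium with DMSO the order was Cdkn1c (74.5 CPM per kb), Cdkn1a (26), Cdkn2d (12.8), Cdkn2c (6.94), Cdkn1b (5.68), Ccnd1 (3.93), Ccnd3 (3.28) and Ccnd2 (0.1 CPM per kb). The counting intervals of neighbours in this order overlapped for Cdkn2c and Cdkn1b and for Ccnd1 and Ccnd3. In 4T1-CM with DMSO the order was Cdkn1a (24.4 CPM per kb), Cdkn2d (14.7), Cdkn1b (9.88), Cdkn1c (8.97), Ccnd3 (5.12), Cdkn2c (3.34), Ccnd1 (1.1) and Ccnd2 (0.219 CPM per kb), with an overlap for Cdkn1b and Cdkn1c. Cdkn1c thus went from the first place to the fourth, and Ccnd1 from beside Ccnd3 to well below it.

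The order with CH223191 was much the same in each medium. In normal medium with CH223191, Cdkn1b (6.01 CPM per kb) and Cdkn2c (5.97) had overlapping intervals, as had Ccnd1 (3.2) and Ccnd3 (3.18). In 4T1-CM with CH223191 the order of the 8 genes was that of 4T1-CM with DMSO, and the intervals of Cdkn1c (6.52) and Ccnd3 (5.32) overlapped.

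Summed by family, the CIP/KIP genes went from 106 (DMSO) and 89.1 (CH223191) CPM per kb without 4T1-CM to 43.2 and 40.1 in its presence. The share of Cdkn1c in that sum was 70.2% and 59.8% in normal medium (DMSO first, CH223191 second) and 20.7% and 16.3% in 4T1-CM. Cdkn1a took the largest share with 4T1-CM, 56.4% and 56.9%, and Cdkn1b went from 5.34% and 6.74% to 22.8% and 26.8%. The p57 gene thus led the family in normal medium and the p21 gene in 4T1-CM.

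The D-type cyclin genes summed to 7.31 and 6.41 CPM per kb without 4T1-CM (DMSO first, CH223191 second) and to 6.44 and 6.52 in its presence, so the sum stayed within a narrow range while its makeup changed. Ccnd1 made up 53.8% and 50% of it in normal medium and 17.1% and 15.2% in 4T1-CM, and Ccnd3 made up 44.9% and 49.7% and then 79.5% and 81.7%. Ccnd2 was at most 3.39%. As a share of the reads of the family, which depends neither on the scaling of the libraries nor on their depth, Ccnd1 had 295 of 769 (38.4%, exact 95% interval 34.9% to 41.9%) and 240 of 687 (34.9%, 31.4% to 38.6%) in normal medium. In 4T1-CM it had 91 of 913 (9.97%, 8.1% to 12.1%) and 76 of 866 (8.78%, 6.98% to 10.9%). By reads, Ccnd3 was the largest in both media, with 59.7% and 64.6% in normal medium and 86.1% and 87.6% in 4T1-CM. The INK4 genes summed to between 16 and 19.7 CPM per kb in the 4 libraries, with 64.8% and 67.1% from Cdkn2d in normal medium and 81.5% and 81.4% with 4T1-CM. The sum of the 5 inhibitor genes was 17.2 and 16.7 times that of the 3 cyclin genes in normal medium and 9.52 and 8.61 times in 4T1-CM. Both this ratio and the family sums rest on the gene lengths used.

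**Figure D4:**
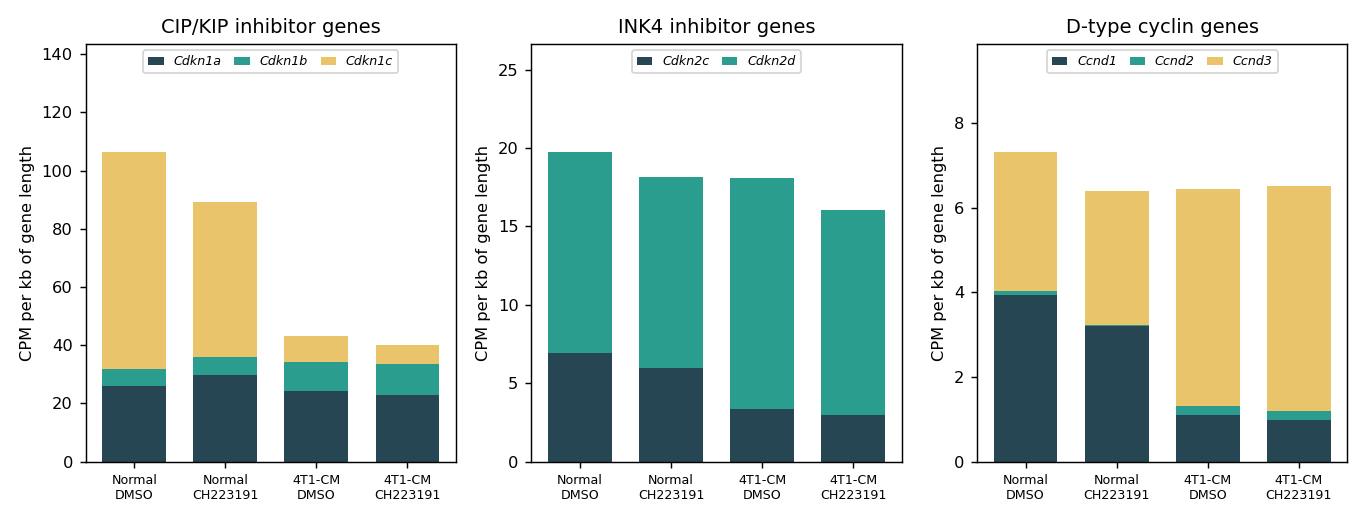
CPM per kb of gene length (y axis) summed over the genes of a family in each library (x axis), with 1 stacked bar per library and a color per gene. Cdkn1c (top part, left panel) makes up 70.2% of the CIP/KIP sum in normal medium with DMSO and 20.7% in 4T1-CM with DMSO, while the D-type cyclin sum stays between 6.41 and 7.31 and turns mostly to Ccnd3.

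The kinases that these proteins bind differed by less than 2-fold in all 4 comparisons. Cdk4 had log2 ratios with 4T1-CM of -0.32 with DMSO and -0.49 with CH223191, Cdk6 had -0.38 and -0.29, and Cdk2, the partner of cyclin E, had 0.29 and 0.05. For CH223191 against DMSO they lay between -0.12 and 0.25 without 4T1-CM and between -0.04 and 0.0015 in its presence. Of the 3 other CDK inhibitors, Cdkn2a had 34 to 66 reads per library, Cdkn2b had 15 to 22 and Cdkn3, a phosphatase that acts on CDKs, had 7 to 37. With DMSO, 0 of the 3 were past 2-fold with 4T1-CM. Cdkn3 had 7 reads in 4T1-CM with CH223191 and was lower there than in normal medium with CH223191 (-2.35) and than in 4T1-CM with DMSO (-1.87).

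Of the 6 genes of cyclin E and the CDK-activating kinase, 0 were past 2-fold with 4T1-CM and DMSO and 1 was lower with CH223191 (Ccne2, -1.13). The 13 pocket proteins and E2F factors also had 0 past 2-fold with DMSO, and 1 higher (Rb1, 1.17) and 1 lower (E2f7, -2.30) with CH223191. These 3 genes, and others below past 2-fold in 1 comparison only, were named after their values were seen.

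All 14 S phase genes had a log2 ratio below 0 with 4T1-CM in both comparisons. The median log2 ratio of the 14 genes was -0.54 with DMSO and -0.63 with CH223191, against 0.01 and 0.02 over all genes, and 3 and 5 of them were at least 2-fold lower, with 0 higher. Of all genes, 6.11% and 7.86% were lower and 12.2% and 12% higher, and these shares also stand behind the list counts that follow. Pcna, the sliding clamp of DNA polymerases, had 6242 reads in normal medium with DMSO, 6835 with CH223191, and 2884 and 2442 in 4T1-CM, with log2 ratios of -1.25 and -1.52. Mcm5, a subunit of the replicative helicase, had log2 ratios of -1.08 and -1.64, and Cdc6, which loads that helicase, had -1.05 and -1.55. These 3 were lower in both comparisons, and Tyms (-1.50) and Ccna2 (-1.01) joined them with CH223191. The 13 mitosis genes had medians of -0.21 and -0.62, with 0 past 2-fold with DMSO and 2 lower with CH223191 (Plk1, -1.15, and Cenpa, -1.06).

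The median log2 ratio of the 16 p53 targets was -0.34 with DMSO and 0.01 with CH223191, with 1 higher and 2 lower, and 1 higher and 1 lower. Sesn1, a sestrin induced by p53, was lower in both comparisons (-1.46 and -1.21). Fas, a death receptor, was higher in both (1.99 and 1.28), and Gadd45a was lower with DMSO (-1.05). The 13 genes for turnover of cyclin D, p21 and p27, such as the SCF subunit Skp2 and the cyclin D adaptor Ambra1, had 0 past 2-fold in any comparison and medians of -0.11 and 0.05 with 4T1-CM.

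The 17 upstream regulators had 3 higher (Csf1r, Csf2rb and Csf2rb2) and 1 lower (Maf, -1.05) with 4T1-CM when DMSO was given, and 2 higher and 1 lower (Myc) when CH223191 was given. Csf2rb2, a beta subunit gene of the IL-3 receptor, was higher in both (1.16 and 1.04), and reads may be split between it and its near copy Csf2rb (1.03 and 0.96). Csf2ra, the alpha subunit gene of the GM-CSF receptor, went the other way, by less than 2-fold (-0.88 and -0.46). Myc, a known activator of cyclin D genes, had -0.85 and -1.18. Of the 6 STAT5 targets, 3 were higher in both comparisons (Socs2, 1.67 and 3.16, Socs3, 6.17 and 4.93, and Osm, 2.17 and 2.05) and 1 lower (Bcl2l1, -1.51 and -1.38), and Cish had 0 reads in both libraries in normal medium and 15 and 24 in 4T1-CM. The medians of this list were 1.92 and 2.61, or 1.92 and 2.51 with Cish set to its bound of 3 reads. AHR and its targets had 5 of 6 genes with enough reads and medians of 1.17 and 1.13, with 3 higher in each comparison, of which Ahr itself (2.17 and 2.93) and Cyp1b1 (2.33 and 3.11) were higher in both. Nqo1 (1.17) was the other with DMSO and Ahrr (1.13) the other with CH223191.

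Of the 110 genes of the 11 lists, 109 passed the filter on low counts. The list counts leave out any gene at or under 3 reads in a compared library, which was Cish in each comparison that involves normal medium. For CH223191 against DMSO, 2 of the 109 were past 2-fold without 4T1-CM and 1 in its presence, where 8.15% and 5.41% of all genes were. In normal medium, Socs3 was higher (1.12) and Cyp1b1, a classical AHR target, was lower (-1.75), and in 4T1-CM Cdkn3 was lower. Just short of 2-fold in 4T1-CM were Cyp1b1 (-0.97, counting interval -1.24 to -0.70) and Nqo1 (-0.97, -1.62 to -0.36). Of the 5 genes of AHR and its targets with enough reads, 4 had a ratio below 0 there and 1 above, with a median of -0.09. For 4T1-CM against normal medium the counts were 10 higher and 7 lower in cultures with DMSO, and 10 and 13 in those with CH223191. Over all genes, 12.2% were higher and 6.11% lower in the first comparison and 12% and 7.86% in the second. These shares, unlike the list counts, include genes with 3 reads or fewer in a library, and nothing is read from setting the counts beside them.

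**Figure D5:**
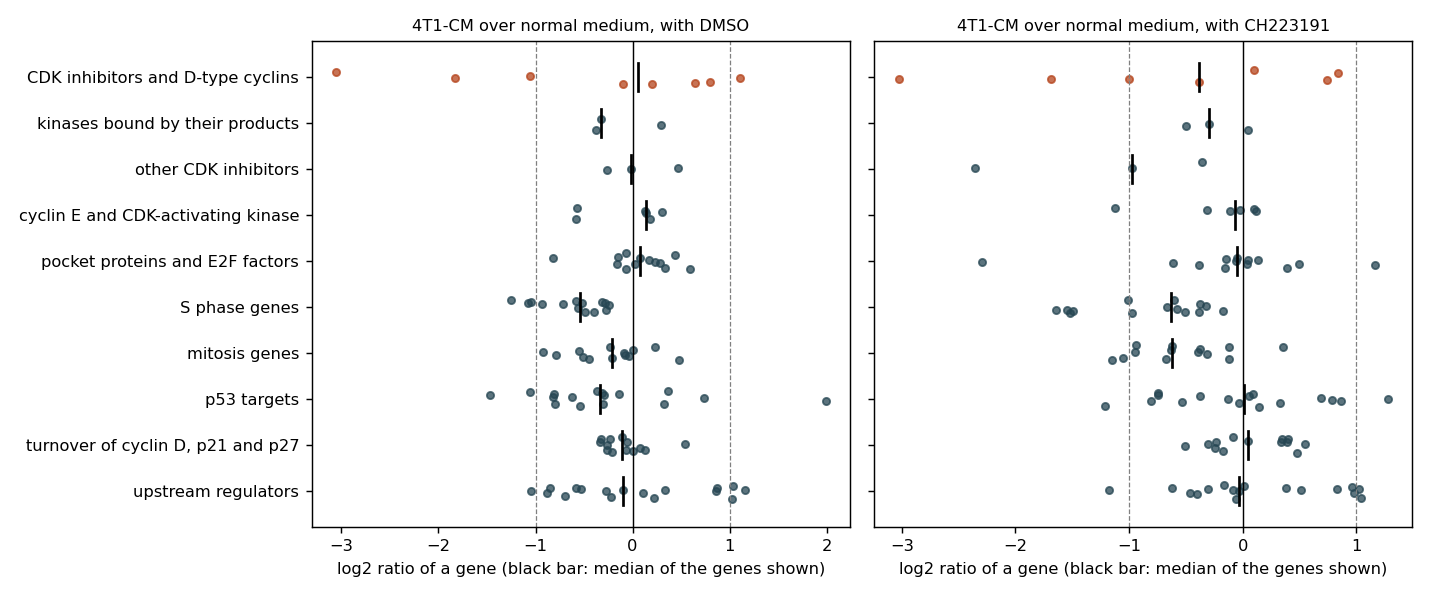
Log2 ratio of 4T1-CM to normal medium (x axis) with DMSO (left) and with CH223191 (right) for the CDK inhibitors and D-type cyclins (red points) and for 9 lists of cell cycle and regulator genes (dark points), with 1 point per gene that had more than 3 reads in both libraries, a black bar at the median of the points shown and dashed lines at 2-fold. All 14 S phase genes lie below 0 in both panels, with medians of -0.54 and -0.63, and Cdkn1c lies lowest of all points in both.

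Markers of other cell types were examined beside these results, since in bulk RNA fewer cells of a type cannot be told apart from less RNA per cell. The 6 fibroblast markers summed to 63 and 30.1 CPM in normal medium and to 149 and 127 CPM in 4T1-CM, with Lum at 3 reads or none, and 4 of them were past 2-fold higher with 4T1-CM in each comparison. With 4T1-CM the direction of these 4 was opposite to that of Cdkn1c and Ccnd1 and the same as that of Cdkn1b and Ccnd3. Pdgfra had log2 ratios of -0.27 with DMSO and 0.48 with CH223191. For CH223191 in normal medium, Col1a1 (-1.60), Col1a2 (-0.82), Col3a1 (-1.85) and Pdgfra (-0.88) were lower, as Cdkn1c and Ccnd1 were, while Dcn was higher (0.36). The 9 neutrophil markers summed to 67.6 and 74.6 CPM and then to 242 and 181 CPM, mainly Csf3r and Mmp8. Ly6g, S100a9 and Retnlg were at 0 in each library, while S100a8 had 99, 190, 560 and 412 reads, with log2 ratios of 2.36 and 1.08 for 4T1-CM. Cxcr2 went the other way, with 12, 9, 2 and 0 reads, and Camp and Ltf had 6 reads or fewer. The 5 B cell markers summed to 20.2 and 34.3 CPM and then to 7.94 and 5.29 CPM, nearly all of it Ighm, with Cd79a, Cd79b and Ms4a1 at 9 reads or fewer, and this sum was lower with 4T1-CM as Cdkn1c and Ccnd1 were. The T cell, mesothelial, epithelial tumor and dendritic lists of 6, 4, 5 and 4 genes summed to at most 0.69, 1.13, 1.48 and 2.46 CPM, which is near the level of Ccnd2 and below that of the other 7 genes. Cd3e, Cd3d, Cd3g, Trac, Cd8a and Krt19 were at 0 in each library. The part of these cell types in the values above was not tested.

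The genes whose levels moved most like each of these over the 4 libraries were looked up among 8323 candidate genes (mean of 10 CPM or more), by the distance between log2 levels centred on each gene's mean. Cdkn1b was nearest to Dusp1, a MAP kinase phosphatase, at a distance of 0.0174, followed by Rai14 and Dtx4, against a median distance of 0.908 over all candidates. Ccnd3 was nearest to Cybc1, a chaperone of the phagocyte NADPH oxidase (0.0351), followed by Syt11 and 1600014C10Rik. Ccnd1 was nearest to Vwf, the gene of von Willebrand factor (0.114), then to Anxa1 and to Stmn1, which encodes a microtubule-destabilizing protein.

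The nearest genes to Cdkn1c were farther away, with a distance of 0.431 to Rasgrp3, an activator of RAS proteins, then 0.453 to Efr3b and 0.486 to Nes, which encodes nestin. Cdkn2c was nearest to Sms, the spermine synthase gene (0.0466), then to Oxct1 and Tsr2. Cdkn1a was nearest to Nip7 (0.0101), Arpc4 and Fbxo6, and Cdkn2d to Prdm4 (0.0123), Tstd3 and Nploc4. With 4 libraries such distances describe these libraries, and genes of stable level find near matches more readily. Ccnd2 was left out because it had fewer than 20 reads in a library.

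Some transcript sequence is shared with other genes. Of the 50-base words in their transcripts, 0% for Cdkn1b, Cdkn2c and Cdkn2d also occur in transcripts of another gene on either strand, 5.39% for Ccnd3, 6.31% for Ccnd2, 8.49% for Cdkn1a, 21.6% for Ccnd1 and 24.9% for Cdkn1c. For Ccnd1 and Cdkn1c the only gene that shares them is the one on the opposite strand named above, Oraov1 and Gm44732. Ccnd3 overlaps Bysl, on the opposite strand, over 4.11% of its exon bases, and Bysl had 182 to 247 reads per library.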

How the data were processed

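RNA-seq of 4 mouse peritoneal macrophage cultures was analysed, with 1 library per condition. The authors deposited raw read counts per gene, without normalization, in 1 table of 54532 genes with coordinates and gene lengths. The submitters' processing notes name HISAT2 2.0.5 and DESeq2. The methods name FeatureCounts for alveolar macrophages, and the counter, strand setting and build used for these libraries are not given in the sources used here. Of 54409 genes shared with GENCODE M21 (GRCm38), 53499 had the same coordinates.

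Count columns were matched to samples by name, and groups were taken from the treatment labels. Genes below 10 reads in all libraries were left out, libraries were scaled by TMM (edgeR 4.0.16, R 4.3.3), and log2 ratios were taken with a prior count of 0.5. A ratio of at least 2-fold was counted as different, with no fold against 3 reads or fewer. With 1 library per condition no test was run. The 95% intervals of ratios are exact Clopper-Pearson intervals for how a gene's reads divide between 2 libraries, those of levels are exact Poisson intervals, and those of differences between responses are normal approximations from the 4 counts. Reads are not unique molecules, so all intervals cover counting error only. Depth was 15535405 to 17557127 reads per library. The procedure was checked on simulated counts. A gene symbol listed again (103 entries) was replaced by its identifier.

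The 8 genes, the pathway and marker lists and the comparisons were chosen with earlier results of these data known, and the motifs after the count values were seen. The text names the 8 genes, the kinases they bind, list genes past 2-fold in the same direction in both members of a comparison pair, and, for each of the 8 with 20 reads or more per library, the 3 genes with the nearest profile. Other names were chosen after their values were seen. Alternatives were DESeq2 1.42.0 size factors, total counts, a prior count of 5, no filter on low counts and at least 10 reads in every library. Python 3.11.15, numpy 2.4.6, pandas 2.3.3, scipy 1.17.1 and matplotlib 3.10.9 were used. Values of some listed genes are not reported here.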

Additional observations from a re-analysis of the deposited data

Results flagged for a closer look

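Cdkn1a and Ccnd3 had log2 ratios of CH223191 to DMSO with opposite signs in the 2 media. For Cdkn1a the ratio was 0.1937 in normal medium and -0.096 with 4T1-CM. For Ccnd3 it was -0.0444 in normal medium and 0.0573 with 4T1-CM. The counting interval included 0 for Cdkn1a with 4T1-CM and for Ccnd3 in either medium. For Cdkn1a with 4T1-CM it ran from -0.2036 to 0.0114, and under DESeq2 size factors from -0.2155 to -0.0006, which leaves out 0. The difference between the media was not tested, as each value rests on 1 pair of libraries.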

How the results depend on the processing

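No paired analysis was possible because each condition has 1 library. Under DESeq2 size factors, total counts, a prior count of 5 and no filter, the 30 ratios of the 8 genes kept their sign and stayed within their counting intervals, as did the 28 left when every library had to reach 10 reads, which removes Ccnd2. The largest shift was 0.18, for Ccnd2 under a prior count of 5, which took its ratio for 4T1-CM in DMSO cultures from 1.10 to 0.92 and so below 2-fold. Cdkn2c in CH223191 cultures passed 2-fold under DESeq2 size factors (-1.01) and under no filter (-1.02). The median ratio of all genes lay between -0.05 and 0.02 in each setting. Depth limits Ccnd2 most, at 3 to 36 reads.

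Counts over all genes moved with the filter, which changes how many genes are counted (21917 without one, 11765 where every library had to reach 10 reads). Without a filter, 4T1-CM gave 4635 higher and 2535 lower genes in DMSO cultures and 4367 and 2995 in CH223191 cultures, and CH223191 gave 2815 and 2260 in normal medium and 2555 and 2688 in 4T1-CM cultures. Where every library had to reach 10 reads, the numbers in that order were 851 and 499, 869 and 677, 226 and 89, and 83 and 53. A prior count of 5 gave 363 and 207 for CH223191 in normal medium and 161 and 160 in 4T1-CM cultures.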
